A study of Mus musculus with 87 samples.

Results

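The Chr2-cl mating is a family of 8 mice in which a cluster of KRAB zinc finger protein (KRAB-ZFP) genes on chromosome 2 had been deleted. Its animals were chosen by strain, a cross of B6, 129/Sv and 129/Sv-CP, and make up 8 of the 87 samples of the series, or 8 of the 76 when each animal or cell line is counted once. The KO group holds 5 Chr2-cl KO/KO mice: C6771 and C6773 (ear DNA, female), C6735 (ear, male), C6766 (tail, female) and C6768 (tail, male). The comparison group holds the Chr2-cl WT mice C6774 (ear, female) and C6736 (ear, male) and the Chr2-cl KO/WT mouse C6734 (ear, male). Both tail samples are KO, so tail DNA and genotype cannot be told apart there. The labels give no age, litter or sequenced parent for these mice. According to the methods of the study, the deletion was made in ES cells of 129 origin and the mice were kept on a mixed background, so every animal can carry B6 and 129 chromosome segments. The sources used here do not say how many ES cell clones gave rise to the line. The other mice of the series carry, lack or are heterozygous for a different deletion, Chr4-cl, on a B6, B6/129 F1 or B6/129 F2 background.

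KRAB-ZFPs are DNA-binding repressors, and many of them recognise transposable elements and recruit the co-repressor KAP1, which brings about heterochromatin. ETn elements are a mouse-specific family of retrotransposons bounded by long terminal repeats (LTRs). They encode no proteins of their own for retrotransposition and move with those of the related ETnERV (MusD) elements, and some ETn insertions are recent enough to differ between inbred strains such as B6 and 129. The mating served in the study as a control for its ETn capture. The question for the present data is whether KO animals carry ETn insertions that their relatives lack.

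The deletion was defined by a pair of guide RNAs. They are shown because the deleted interval sets what the capture can and cannot see. Each had a single exact match in the genome (build NCBIM37, the same assembly as mm9), with the neighbouring PAM given in capitals.
Chr2-cl guide 1, chr2:174783764-174783783, minus strand: gccgttgctcagtccaaatgGGG
Chr2-cl guide 2, chr2:177832883-177832903, plus strand: gataccagaggtggccgcaagAGG
Both matches lie between genes. The nearest protein-coding gene is the predicted gene Gm14444 at 51959 bp for guide 1 and Zfp931, a zinc finger gene of the cluster, at 19702 bp for guide 2.

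The interval between the guides spans 3.05 Mb and holds 94 annotated genes, 49 of them protein-coding. The 19 symbols used here for the cluster are only part of the KRAB-ZFP genes that the study counts in it. Of these 19, 18 were found by symbol in the interval. No ETn element sampled by the capture lies inside it. Of 1274 ETn probe sequences, 1221 were found at their place in the genome, 43 of them on chromosome 2 and 0 in the interval. The closest element with probes ends on the outer side of guide 1. Its probes are shown because they mark where captured ETn sequence stops before the deletion, with the longest run shared by both, 32 bases, in capitals.
Probe at chr2:174770813-174770932, minus strand, 12851 bp before the interval: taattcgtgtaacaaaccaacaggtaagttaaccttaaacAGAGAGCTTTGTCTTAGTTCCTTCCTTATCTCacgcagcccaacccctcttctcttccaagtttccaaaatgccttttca
Probe at chr2:174773792-174773911, minus strand, 9872 bp before the interval: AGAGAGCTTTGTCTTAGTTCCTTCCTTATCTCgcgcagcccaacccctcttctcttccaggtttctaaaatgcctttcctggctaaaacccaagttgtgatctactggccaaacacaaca

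Read counts in the interval were at background in all 8 mice. WT C6736 had 0 reads there, WT C6774 had 2 and the KO/WT mouse had 1. Among the KO mice, C6766 had 0, C6768 and C6771 had 1 each, and C6735 and C6773 had 2 each. Every one of these reads stood in a region of its own. The mean was 1.51 ± 1.04 reads per 1e6 reads (RPM; SD, n = 5) in KO and 1.21 ± 1.22 (SD, n = 3) in WT with KO/WT, with an exact two-sided rank sum p of 0.875. The genotype labels therefore could not be checked from reads inside the deletion. The sex labels could be checked: chromosome Y held 0.150 to 0.154% of the reads of the 4 males and 0.00586 to 0.00883% of those of the 4 females.

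The libraries of the mating held 699602 to 882817 reads whose mate maps to an ETn element. A locus was called in a library when 1 region of it reached 10 RPM, which is 7.0 reads in the shallowest of the 8 libraries and 8.83 in the deepest. Each animal gave 2547 to 2659 called loci and called 98.5 to 99.7% of the 2341 loci found in all 16 B6 libraries, 14 mice and 2 ES cell lines. Those loci were chosen for being called in every B6 library, which leaves out elements that are hard to capture. Of the 1221 probe places found in the genome, 92.2 to 93.9% had a called region within 1000 bp in each animal. Capture of known elements was thus similar in every animal. Each mouse is 1 library, so the spread given here is between animals. The labels do not tie any of the 8 libraries to a shared culture or extraction.

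No private insertion was found in the mating. A private insertion is a locus called in 1 animal and without a read in any other of the 76 animals and cell lines. The count was 0 in each of the 5 KO mice, 0 in both WT mice and 0 in the KO/WT mouse. The groups were identical, with a difference of 0 and an exact two-sided rank sum p of 1.0. The smallest p that 5 animals against 3 can give is 0.0357. A count of 0 in 8 animals allows a share of up to 37.5% of animals with such an insertion, and an average of up to 0.375 insertions per animal (3 counts, counting error only). A threshold of 20 RPM also gave 0 in all 8.

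The same definition gave private insertions in other mice of the series. In the 39 B6/129 F2 mice the count ran from 0 to 80 with a median of 15, and 26 of 39 had at least 1. In the 13 B6/129 F1 mice it ran from 0 to 16 and 4 of 13 had any. In the 14 B6 mice it ran from 0 to 3 and 5 of 14 had any. The Chr2-cl mice had fewer than the F2 mice in an exact two-sided rank sum test, with a p of 0.00466 after Benjamini-Hochberg adjustment over 3 strains. The effect was -66.7, counting over all pairs of animals the percent with more in the Chr2-cl mouse minus the percent with fewer. The comparisons with B6 (effect -35.7, adjusted exact p = 0.173) and with F1 (effect -30.8, adjusted exact p = 0.192) did not pass the test. These tests count each mouse as independent. According to the study, however, the Chr2-cl mice come from a single mating, and many F2 mice share matings. The p values therefore do not measure the spread between families.

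The tissues were unequal in all 3 comparisons. The B6 mice had 4 ear and 4 tail samples and the F1 mice 6 and 5, the rest being blood or spleen, which the mating lacks. The effect against B6 was -25 in ears and -50 in tails, and against F1 it was -33.3 and -20. Of the F2 mice 34 were sampled from tail and 5 from ear, whereas the mating has 2 tails and 6 ears. Among ear samples the F2 counts ran from 0 to 4, and the effect against the 6 Chr2-cl ears was -40 (exact adjusted p = 0.455). Among tails the F2 median was 17.5, and the effect against the 2 Chr2-cl tails was -70.6, of similar size to that over all animals, but with 2 mice it did not pass the test (exact adjusted p = 0.481). With KO animals alone, a choice made after the data were seen, 5 Chr2-cl KO mice at 0 stood against 19 F2 KO mice with a median of 18, and the exact adjusted p was 0.0565. Strain, family, tissue, the deleted cluster and the sequencing of relatives all differ between these groups and cannot be told apart.

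**Figure D1:**
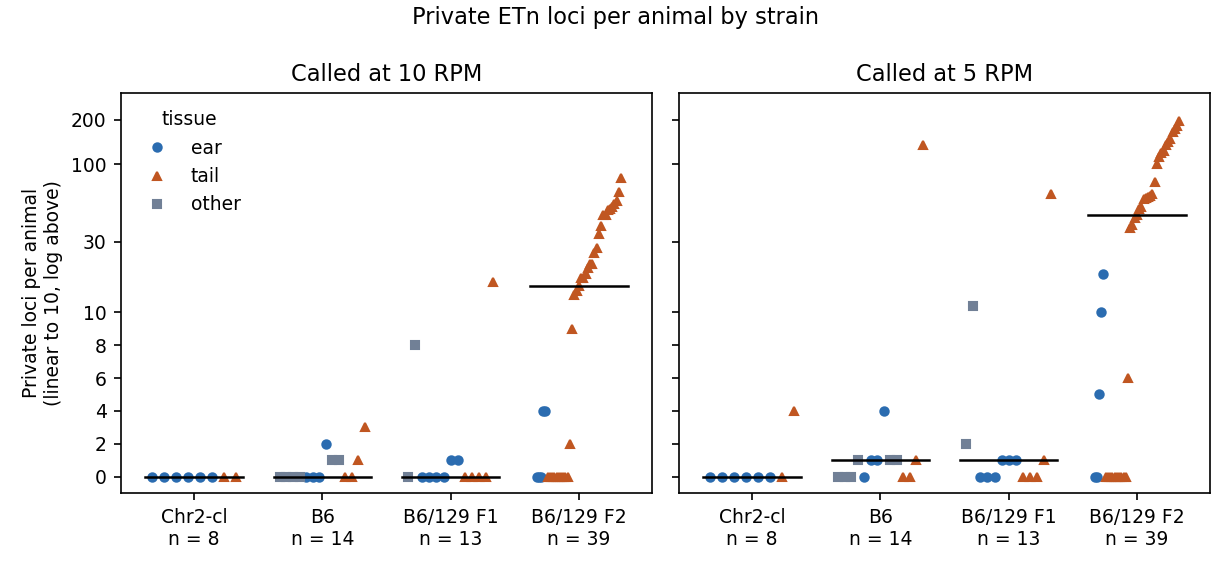
Private ETn loci per animal in the Chr2-cl mating and the other strains, called at 10 RPM (left) and 5 RPM (right); each point is 1 animal, marked by tissue, black lines are medians, and the vertical axis is linear up to 10 and logarithmic above. All 8 Chr2-cl mice sit at 0 on the left, and C6766, a KO tail, sits at 4 on the right.

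Below 10 RPM, private loci appeared in the KO tails. At a threshold of 5 RPM, C6766 had 4 private loci and the other 7 mice had 0, so the KO mean was 0.8 ± 1.79 (SD, n = 5) against 0 in WT with KO/WT, with an exact two-sided rank sum p of 1.0. At 3 RPM, which is fewer than 3 reads in each of the 8 libraries, C6766 had 6, C6768 had 2, the KO/WT mouse C6734 had 1 and the other 5 mice had 0. Both KO tails were above all 3 KO ears at that threshold.

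The 4 loci of C6766 hold few reads each, and all lie between genes. The strongest is at chr13:46079266-46079524 and had 8 reads (9.48 RPM), with the predicted gene 5033430I15Rik 17397 bp away. The locus at chr7:114384844-114385237 had 6 reads (7.11 RPM) and lies 30414 bp from Rbmxl2, which encodes an RNA-binding protein. A further 6 reads (7.11 RPM) fell at chr14:115242127-115242520, 248917 bp from Gpc5, a cell surface proteoglycan gene of the glypican family. The weakest, at chr3:19369514-19369950, had 5 reads (5.93 RPM) and lies 38645 bp from Dnajc5b, a J-domain co-chaperone gene. The probe place closest to any of these 4 loci is 529915 bp away. Captured elements can lie far from any probe place, as at chr2:33325857-33329280, 3182372 bp away and called in all 8 mice. Whether a reference element lies near these 4 loci was not tested. With every library thinned to 525419 reads, the depth of the shallowest of the series, C6766 had 1 private insertion at 10 RPM and the other 7 mice had 0.

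Where reads in other animals were allowed, 5 loci were called in 1 Chr2-cl mouse and in no other animal. The KO/WT mouse C6734 had 3 of them. Its locus at chr10:14586839-14589025 had 15 reads (17.8 RPM) and lies 96450 bp from Nmbr, the neuromedin B receptor gene, and 53 other animals also had reads there. At chr10:15511516-15515286 it had 13 reads (15.4 RPM), and 26 other animals had reads, up to 14.2 RPM. That value is a sum over regions, and no single region of another animal reached 10 RPM there. At chr11:5597689-5599863, 4123 bp from the mitochondrial ribosomal protein gene Mrps24, it had 9 reads (10.7 RPM) against 17 other animals with reads.

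The other two of these loci were as weak. WT C6736 had 11 reads (12.5 RPM) at chr8:19221555-19221752, near the beta-defensin gene Defb6, where 72 other animals had reads. KO C6771 had 7 reads (10.01 RPM) at chr4:146773027-146773145, in an intron of the lincRNA gene Gm16889, where 33 other animals had reads. At each of these 5 loci at least 1 of the other 7 mice had a read, so none met the definition of a private insertion.

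General measures of the libraries did not separate KO from the other animals. KO mice had 2565 ± 16.1 called loci (SD, n = 5) and WT with KO/WT 2597 ± 54.8 (SD, n = 3). Loci that no B6 library has numbered 65 to 79 in the KO mice, 80 in WT C6774, 58 in WT C6736 and 139 in the KO/WT mouse. The KO/WT mouse also had the most loci between 5 and 10 RPM, 403 against 155 to 231 in the other 7. Regions of a single read were fewer per 1e6 reads in KO (6709 ± 514, SD, n = 5) than in the other mice (7608 ± 928, SD, n = 3), and the ranges overlapped through both KO tails. Among ears they did not: the KO ears had 5954, 6552 and 6672 and the other mice 6857, 7321 and 8645, where 3 against 3 cannot go below an exact p of 0.1 (adjusted 0.4). Over the 6 measures in all 8 mice the lowest exact two-sided p was 0.143, or 0.75 after Benjamini-Hochberg adjustment.

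The level of chromosome X loci was higher in females than in males, who carry a single X. Autosomal loci of known copy number were not examined, so RPM elsewhere is not read here as a number of copies. The median RPM of 144 chromosome X loci called in every B6 library was 413, 415, 419 and 406 in the females C6774, C6771, C6773 and C6766. In the males C6736, C6734, C6735 and C6768 it was 305, 308, 316 and 309. The sexes did not overlap, while the medians over autosomal loci were 433.9 to 442.9 in all 8. The female minus male difference in median log2 RPM was 0.42 (8.69 ± 0.0194 against 8.27 ± 0.0213, SD, n = 4 each), with an exact two-sided permutation p of 0.0286, the smallest that 4 against 4 can give. Males, with a single X, thus had 74.8% of the female level. Duplicate reads had been removed before the counts were deposited, and whether this flattens the relation of RPM to copy number was not tested.

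**Figure D2:**
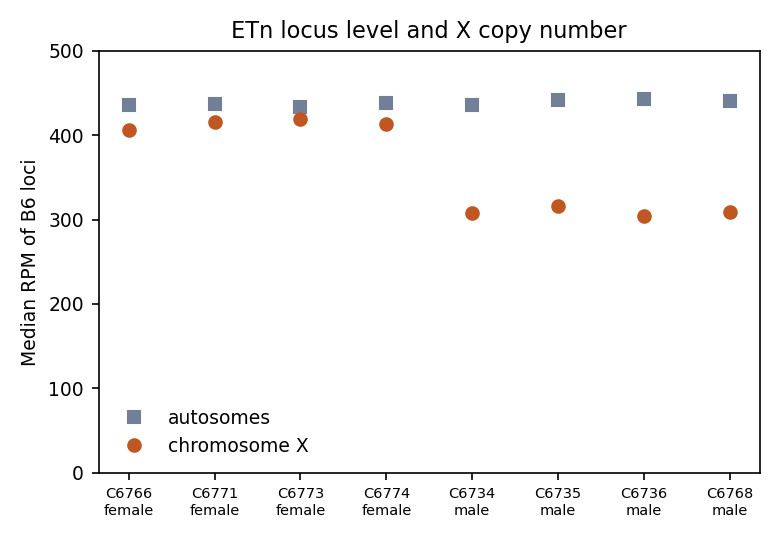
Median RPM of ETn loci called in every B6 library, on autosomes (squares) and on chromosome X (circles), in the 4 female and 4 male mice of the mating. Chromosome X medians are 406 to 419 in females and 305 to 316 in males, while autosomal medians are alike.

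Inherited ETn loci differed widely between the 8 mice. A segregating locus has at least 100 RPM in 1 or more of the 8 and under 10 RPM in 1 or more of them, and 142 loci met this. They fell on 19 chromosomes, 18 on chromosome 1, 17 on chromosome 13, 15 on chromosome 8 and 12 on chromosome 2. Chromosome Y holds 3 of them, and since females lack it, a difference there goes with sex. These 3 are kept in the counts of loci and carriers below. Of the 142, 40 are called in every B6 library, 38 in some of them and 64 in none. Of these 64, 48 are called in B6/129 mice of the series, whose 129 parent was of another substrain, 129X1/SvJ, and 16 are not. The 38 include loci called in a single B6 library, such as chr2:21142443-21143680, at 301 RPM in 1 library. A locus like this counts neither as absent from B6 nor as seen in the mating alone. By annotation 105 of the 142 lie between genes, 30 overlap an intron and 7 an exon.

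Most carriers were far above the threshold for a call. Of 725 carrier values at segregating loci, 96.4% reached 50 RPM, with a median of 205 RPM and quartiles of 148 and 262. Of the 411 values in animals without a call, 51.8% were 0. A smaller number of values lay near the threshold, 24 at 10 to 20 RPM and 40 at 5 to 10 RPM, so some carriers were called on few reads. At chr2:129087518, for example, WT C6736 was called at 10.2 RPM and WT C6774 was not at 9.74 RPM, while KO C6766 had 440 RPM. A single carrier was seen at 1 locus, in KO tail C6768, with 120 RPM at chr16:64071907-64073904. The nearest gene, at 207923 bp, is Epha3, an ephrin receptor gene. This locus is called in all 39 F2 mice, so it is no private insertion. The carriers of the 142 loci, as called at 10 RPM, took 63 different combinations of the 8 animals.

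The number of segregating loci carried was similar in both genotypes. WT C6736 carried 83, WT C6774 carried 87 and the KO/WT mouse 92. The KO mice carried 85 (C6735), 86 (C6771), 90 (C6773), 100 (C6768) and 102 (C6766). The highest counts were in both KO tails, and the KO ears lay within the range of the other animals. Some neighbouring loci shared their carriers. Of 123 pairs of segregating loci next to each other on a chromosome, 46 had exactly the same carriers and 65 had carriers that differed in at most 1 animal. In 14 of these pairs the loci lie within 10000 bp of each other, and in 13 of the 14 both loci are within 1000 bp of a probe place, so the flanks of a single reference element can be counted as separate loci among the 142. The carriers were the same in 11 of these 14 pairs and in 35 of the 109 pairs farther apart.

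**Figure D3:**
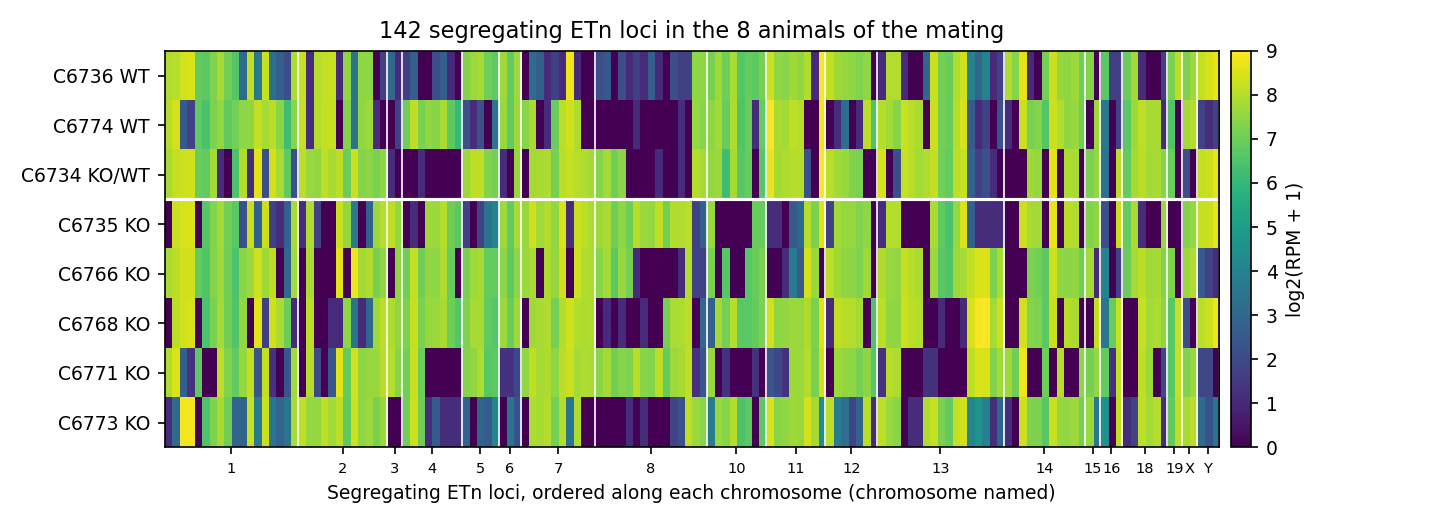
Levels of the 142 segregating ETn loci (columns, ordered along each chromosome) in the 8 mice (rows, WT and KO/WT above the white line, KO below), as log2(RPM + 1). Light cells are carriers and dark cells non-carriers, and in 35 of 109 neighbouring pairs more than 10000 bp apart the carriers are the same.

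Of 2700 loci called in at least 2 of the 8 mice, 3 differed between KO and WT with KO/WT, 0.111% of those tested (edgeR quasi-likelihood test, Benjamini-Hochberg adjusted p below 0.05). KO was higher at 2 of them (0.0741%) and lower at 1 (0.037%). Most loci could not differ in carriers, since 2360 were called in all 8 mice. Of the 142 segregating loci, 2 had all 5 KO mice and 0 of the other 3 as carriers. The reverse was seen at 0. Of the 3 loci, 2 lie on chromosome 8 and 1 on chromosome 11, and all are called in other mice of the series. None lies on chromosome 2, where 128 loci were tested and the lowest adjusted p was 1.0. The RPM ranges of the groups did not overlap at 85 of the 2700 loci, or 3.15%, and at 7 of the 128 on chromosome 2, or 5.47%.

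The first locus is at chr8:126949043-126952216, in an intron of Pgbd5, a gene derived from a piggyBac transposase. The KO mice C6735, C6766, C6768, C6771 and C6773 had 269, 250, 272, 283 and 282 RPM, WT C6736 had 2.27, and WT C6774 and the KO/WT mouse had 0. All 5 KO mice were carriers and the other 3 were not (edgeR, adjusted p = 0.0133). No B6 library had a read there, and the F1 and F2 medians were 261 and 361 RPM.

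The locus at a lower level in KO is on the same chromosome, at chr8:125714154-125716758, in an intron of the predicted gene Gm20388. Whether it was inherited together with the Pgbd5 locus was not tested, so the differences at these loci may not be separate. WT C6736, WT C6774 and the KO/WT mouse had 412, 408 and 417 RPM. The KO mice had 336, 327, 322, 307 and 334 RPM in the order C6735, C6766, C6768, C6771, C6773. The log2 fold change was -0.34 (KO mean 325 ± 11.5 RPM, SD, n = 5, against 412 ± 4.67, SD, n = 3; edgeR, adjusted p = 0.0147). This locus is called in all B6 libraries, with a median of 426 RPM. The F1 median was 333 RPM and the F2 median 1.21 RPM, the opposite order to the Pgbd5 locus.

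The remaining one is at chr11:39699613-39701582, between genes, with Mat2b, the regulatory subunit gene of methionine adenosyltransferase, 791234 bp away. The KO mice had 148 (C6735), 199 (C6766), 148 (C6768), 146 (C6771) and 218 RPM (C6773). WT C6736 had 1.13 RPM and the other two non-KO mice had 0 (edgeR, adjusted p = 0.0133). C6766 and C6773 were above the other 3 KO mice, which sat between 146 and 148 RPM. The medians were 0 RPM in B6, 143 in F1 and 178 in F2.

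**Figure D4:**
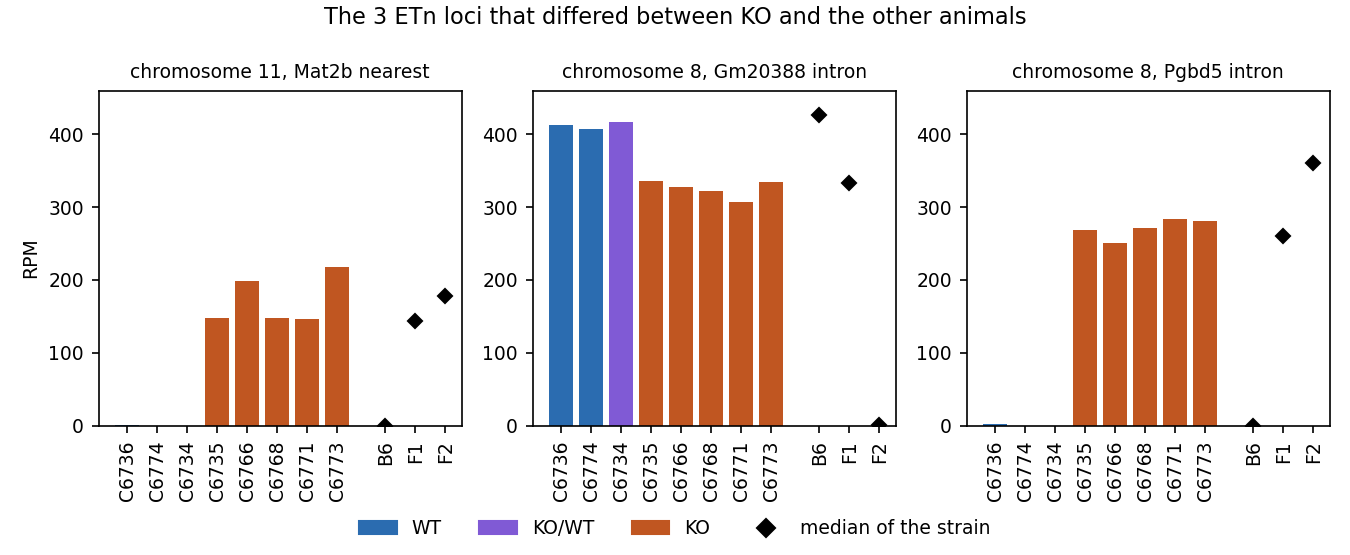
RPM in each of the 8 mice (bars, coloured by genotype) at the 3 loci that differed between KO and WT with KO/WT, with the medians of B6, B6/129 F1 and B6/129 F2 samples as diamonds. At the Gm20388 locus KO mice had 307 to 336 RPM and the others 408 to 417, while at the Pgbd5 and Mat2b loci only KO mice were carriers among the 8.

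The 3 calls rest on few animals. With the 6 ear samples alone no locus passed (65 at an unadjusted p under 0.05), and with sex in the edgeR model none passed either (74 at an unadjusted p under 0.05), the 3 loci having an adjusted p of 0.0545. Without KO C6766 or without KO C6768 the count was also 0 (70 and 69 at an unadjusted p under 0.05), without KO C6773 it was 18, without the KO/WT mouse 7, and with DESeq2 it was 10. The Gm20388 locus also lost its call without either WT mouse or without the KO/WT mouse (edgeR, adjusted p = 0.0562 to 0.109). The differences themselves moved little. The log2 fold change at the Gm20388 locus was -0.34 in ears, -0.33 with sex in the model and -0.34 without C6766 or without C6768, and the carriers at the Pgbd5 and Mat2b loci in every such set were the KO mice alone.

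On chromosome 2, 2 loci that no B6 library has followed the genotype label, both on the side before the deletion. At these loci both WT mice were non-carriers, and the KO/WT and all KO mice were carriers. They were picked by this pattern, and chromosome 2 holds 12 segregating loci. Another locus that no B6 library has, at chr2:120480583-120483096, went otherwise, with 179 and 155 RPM in WT and 0 in KO C6766. At chr2:181665040-181665136, past the interval, WT and KO/WT mice had 12.2 to 15.4 RPM and KO C6768 and C6771 had 0. The locus at chr2:159050440-159052652 lies 15.7 Mb before the interval and 366490 bp from Dhx35, a helicase gene. It had 0 RPM in WT C6736, 1.22 in WT C6774 and 146 in the KO/WT mouse. In the KO mice it had 199 (C6735), 141 (C6766), 203 (C6768), 196 (C6771) and 145 RPM (C6773). Both WT mice were non-carriers and the other 6 were carriers, with C6766 and C6773 at the level of the KO/WT mouse.

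The locus at chr2:161873884-161876018 lies 12.9 Mb before the interval, in an intron of Ptprt, a receptor tyrosine phosphatase gene. WT C6736 had 2.27 RPM and WT C6774 had 0, against 181 in the KO/WT mouse. The KO mice had 257 (C6735), 186 (C6766), 276 (C6768), 264 (C6771) and 197 RPM (C6773). The order of the animals was nearly that of the Dhx35 locus, with C6766 and C6773 again the lowest of the KO mice and nearest the KO/WT mouse. The KO/WT mouse, a carrier, is in the comparison group. Neither locus passed the test of KO against WT with KO/WT (edgeR, adjusted p = 1.0 for both, unadjusted p = 0.255 and 0.222). With genotype coded as the number of deleted copies the Ptprt locus did not pass either (edgeR, adjusted p = 1.0, unadjusted p = 0.0158).

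This pattern, with all 5 KO mice and the KO/WT mouse as carriers and both WT mice not, was seen at 4 of the 142 segregating loci. A further member is also on chromosome 2, at chr2:51351563-51353848, far from the deletion, with 1.13 and 1.22 RPM in the WT mice, 196 in the KO/WT mouse and 192 to 267 in KO. Unlike the loci near Dhx35 and in Ptprt, it is called in every B6 library. The fourth is at chr7:27461694-27464361, in an intron of the cytochrome P450 gene Cyp2b23, with 1.13 and 1.22 RPM in WT, 239 in the KO/WT mouse and 236 to 251 in KO. The opposite pattern, both WT mice as carriers and no KO mouse, was seen at 0 of 142 loci.

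The loci next to the deletion were the same in all 8 mice. The element whose probes are printed above is read at chr2:174769830-174775482, which ends 8301 bp before the interval. It had 1041, 1051 and 1058 RPM in WT C6736, WT C6774 and the KO/WT mouse, and 1051 to 1079 RPM in KO. On the other side, chr2:179152549-179156325 lies 1.32 Mb past the interval and had 472 to 493 RPM in WT with KO/WT and 472 to 527 RPM in KO. Both loci are called in every B6 library, so they do not tell B6 from 129 chromosome segments by presence.

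**Figure D5:**
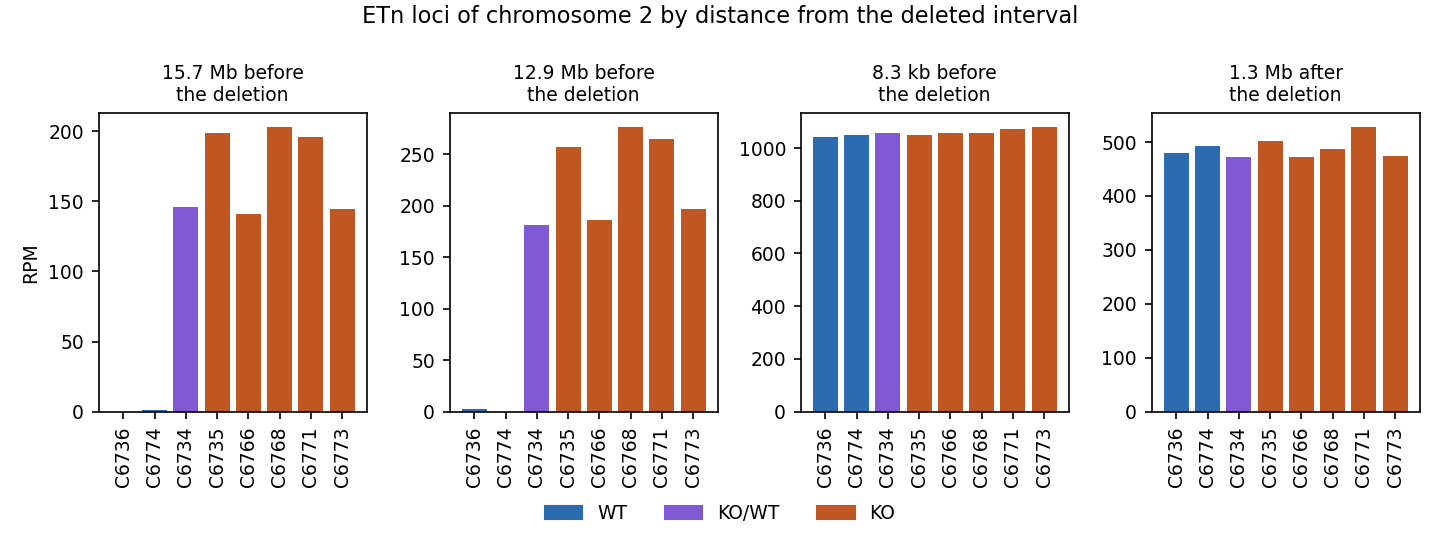
RPM in each of the 8 mice, coloured by genotype, at 4 ETn loci of chromosome 2, titled by their distance from the deleted interval; each panel has its own vertical axis from 0. The loci 15.7 Mb and 12.9 Mb before the deletion are at or below 2.27 RPM in both WT mice and between 141 and 276 RPM in the KO/WT and KO mice, while the nearest loci on either side are at like levels in all 8.

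The mating also held loci seen nowhere else in the series. In all, 30 loci were called in the mating and in no other animal, 25 of them in at least 2 of the 8 mice, and 16 reached 100 RPM. Since no parent was sequenced, inherited elements of the founding substrains and new insertions in the germ line cannot be told apart here. At 7 of those called in at least 2 mice no read was found in any other animal, and these 7 lie between genes.

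The strongest is at chr19:56585307-56586453, 17196 bp from Dclre1a, a DNA cross-link repair gene. WT C6736 had 275 RPM, and the KO mice C6768, C6771 and C6773 had 297, 296 and 275. The other 4 mice, WT C6774, the KO/WT mouse and the KO mice C6735 and C6766, had 0. Carriers were thus found in both genotypes and both tissues.

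A pair of the 7 loci on chromosome 10 shared the same 5 carriers, C6736, C6774, C6734, C6768 and C6773. At chr10:44727475-44728545, 552 bp from the predicted gene Gm4795, these mice had 89.6 to 103 RPM and the other 3 had 0. At chr10:23390100-23390560, 114430 bp from the ribosomal protein gene Rps12, they had 33.3 to 53.2 RPM and the other 3 had 0. All 3 non-carriers, C6735, C6766 and C6771, are KO.

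The other 4 had carriers at 60.4 RPM or less. At chr18:11404707-11406293, 319074 bp from the endoderm transcription factor gene Gata6, C6736, C6774, C6734, C6735 and C6766 had 48.6 to 60.4 RPM and the other 3 had 0. At chr15:83038174-83038472, 18684 bp from the glycosyltransferase gene A4galt, 7 mice had 14.6 to 34.9 RPM and C6768 had 0. At chr13:65426607-65426847, 21078 bp from the zinc finger gene Zfp369, 6 mice had 7.11 to 16.99 RPM and C6768 and C6771 had 0. At chr2:181665040-181665136, 59505 bp from Polr3k, an RNA polymerase III subunit gene, the same 6 mice had 8.30 to 15.4 RPM and C6768 and C6771 had 0.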

How the data were processed

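Genomic DNA of ear or tail had been enriched with RNA probes for ETn LTRs (SureSelectQXT) and sequenced in pairs. According to the study's methods and the submitters' processing notes, the authors mapped the mates with Bowtie to mm9, kept uniquely mapped reads whose mate maps to ETn, removed duplicates with SAMtools and merged reads up to 1000 bp apart into regions (bedtools). The sources used here name no versions of these tools. What the authors deposited are counts, the whole number of reads in each region of each library, neither normalized nor pooled. A region marks reads beside an insertion, not the insertion point.

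Counts were divided by the library total and multiplied by 1e6 (RPM). Calls were made on single regions at 10 RPM, and called regions of all 87 libraries within 1000 bp were joined into 5018 loci. The level of a locus is the sum of its regions. Carriers at segregating loci are the animals with at least 10 RPM by this sum. No region ran past a chromosome end of NCBIM37, and genes came from that build's annotation (GENCODE). The other 11 libraries of the series are further samples of animals that already have 1 library, and none is of this mating.

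Private counts and library measures were compared with exact two-sided permutation tests on rank sums, ties taking midranks. Loci were tested with edgeR 4.0.16 (quasi-likelihood, library totals as library sizes) in R 4.3.3, with DESeq2 1.42.0 as an alternative. Python 3.11.15 was used for the rest. P values were adjusted by Benjamini-Hochberg over all 2700 loci, the 6 library measures or the 3 strains, with a threshold of 0.05. The steps were tested on simulated data. Animal names are those of the labels, and replicate numbers follow accession order and pair no samples. Alternatives were thresholds, joining distance, thinning, tissue, control group, covariate, tool and leaving out each animal. Named loci are all private and single-animal loci, the private loci of 5 to 10 RPM, the loci past the threshold, and the loci with no read elsewhere. The loci of chromosome 2 and those with few carriers were named after their values were seen. The members, lists and tests were chosen with earlier results of these data known.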

Additional observations from a re-analysis of the deposited data

Results flagged for a closer look

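Of 18 groups of 4 to 10 values examined for a value far from the rest, 1 held one. The groups were the KO mice or, for chromosome X, the mice of each sex. WT with KO/WT was not examined as a group, so the high locus counts of the KO/WT mouse C6734 could not be flagged. The rate of about 1 in 20 by chance is for continuous values. Among counts of 0, a single count above 0 is always flagged, as here. The KO mouse C6766 had 4 private loci at a threshold of 5 RPM while the other 4 KO mice had 0. C6766 is a tail sample, as is C6768, which had 0 at this threshold and 2 at 3 RPM, and the share of tissue in this difference was not tested.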

How the results depend on the processing

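The count of 0 private insertions in KO, WT and KO/WT held at 20 RPM, at 10 reads or more, with no read in any of the other 86 libraries, and with overlap alone or 5000 bp as joining distance. With reads allowed in other animals it was 5 in all, and with every library thinned to the shallowest it was 1, in C6766. Leaving out a KO mouse (smallest possible exact p 0.0571) or keeping ears alone (0.1) could not have passed the threshold, so these say nothing of stability. Against F2 mice the effect of -66.7 was -40 in ears (exact adjusted p = 0.455), -70.6 in tails (0.481) and -68.4 in KO animals alone (0.0565, chosen after the data were seen). Leaving out any 1 of the 8 mice could not change this effect, since each of them had a count of 0, so it says nothing of stability. The count of differing loci, 3 in the test reported, was 10 with DESeq2, 7 with WT alone as controls, 0 in ears alone, 0 with sex as a covariate and 0 with the number of deleted copies as the term, where 65 loci had an unadjusted p under 0.05. Leaving out 1 animal gave 0 to 18, with 0 without C6766 or C6768, 18 without C6773 and 7 without the KO/WT mouse C6734. Under DESeq2 and without C6773 the 3 loci reported were among those called. With the highest single region of a locus in place of the sum, chosen after the data were seen, 4 loci passed. The added one, at chr3:7140408-7145873, was listed as 2 regions in all 5 KO mice and as 1 region in the other 3, and its sum was 1109 to 1204 RPM in KO and 1132 to 1190 RPM in the others.

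With WT alone as controls the effect reversed for the percent of reads in B6 loci (20 to -20) and for loci of 5 to 10 RPM (-20 to 20). Leaving out 1 animal gave -20 to 60 and -80 to 20 for these measures, and -20 to 50 for reads in the deleted interval (13.3 with all 8). None of these effects passed the test. The X difference of 0.42 was 0.43 in ears, where 3 against 3 cannot go below an exact p of 0.1. Segregating loci numbered 135 to 140 without 1 animal. No paired analysis was possible because these numbers follow accession order and pair no animals. Loci under about 3 reads, or 3.40 to 4.29 RPM, cannot be told from scattered reads at this depth.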

Other observations

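Of the 30 loci called in this mating alone, 9 had at least 3 reads in each of 6 mice and at most 2.29 RPM in C6768 (KO, tail) and C6771 (KO, ear). Of these, 3 reach 100 RPM and all 3 are on chromosome 13, at chr13:68215173-68216369, chr13:87212709-87214970 and chr13:101612612-101613980. The other 6 stay under 100 RPM. Of these, 2 are on chromosome 13 and the rest are on chromosomes 2, 7 and 19. At chr19:61339587-61339777, 35266 bp from Csf2ra, the 6 mice had 15.7 to 30.4 RPM and the other two 0. At chr7:27677909-27677984, 38666 bp from Cyp2a22, the values were 4.74 to 16.99 RPM against 0. The 9 loci were picked by this pattern. That the 4 weak loci not on chromosome 13 match the strong loci of chromosome 13 therefore follows from the choice and is no finding. Not all of the 6 mice reach 10 RPM at these 4 loci. Whether these reads come from the chromosome 13 segment was not tested.

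The locus with the lowest p when genotype was coded as 0, 1 or 2 deleted copies is on chromosome 2, at chr2:56129597-56132010, and did not pass (edgeR, adjusted p = 0.361). It had 237 and 205 RPM in WT, 459 in the KO/WT mouse and 453 to 570 in KO. The locus is called in every B6 library, with a median of 522 RPM, and the F2 median was 215 RPM.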
